A study of Mus musculus with 32 samples.

Results

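Colon tumors of *Dnase1l3*-KO mice were compared with colon tumors of WT mice across all expressed genes. The libraries were taken by their labels, as tumors after AOM/DSS, from 3 KO mice (527, 543 and 544) and 5 WT mice (534, 541, 542, 579 and 555). They are 8 of the 32 libraries in the series, and 18961 of the 55291 gene symbols in the count table passed the filter on low counts and were tested. KO mice were *Dnase1l3*-/-, with constitutive loss of the gene in every tissue, and WT mice were *Dnase1l3*+/+. Mice of both genotypes were on the C57BL/6 background and were 3-month-old when they received AOM (azoxymethane, a colon carcinogen) at 8 mg/kg, and both then went through 3 cycles of DSS (dextran sulfate sodium, which injures the colon epithelium) in drinking water. Total RNA of the final tumors was sequenced, and whether a library holds RNA of 1 tumor or of several from a mouse is not stated. The rest of the series is whole colon of 4 KO and 4 WT mice each, untreated, after 1 cycle and after 3 cycles. The last of these stages is called late colon here, and mice 527, 543 and 544 (KO) and 541, 542 and 555 (WT) gave both a tumor and a late colon library.

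DNASE1L3 is a secreted DNase, made mainly by dendritic cells and macrophages, that degrades DNA in chromatin and microparticles outside cells. DNA that escapes degradation can be read by nucleic acid sensors such as cGAS, which start the production of type I IFN, and type I IFN in turn switches on a large set of antiviral genes through the transcription factor complex ISGF3. IFN-γ, the type II IFN released by activated T and NK cells, induces an overlapping set with antigen presentation genes at its core. In colon tumors, these genes report on IFN signaling in epithelial, stromal and immune cells together.

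Total counts per library were 33795948 to 34288788 in KO and 30501372 to 37635047 in WT tumors. The epithelial genes *Epcam* (1279 to 1745 CPM) and *Krt8* (2130 to 5028 CPM) were high in each of the 8 tumors, and the fat cell marker *Adipoq* was at most 0.0514 CPM. The epithelial genes *Vil1* (152 to 570 CPM) and *Cdx2* (4.18 to 22.98 CPM) were also found in each tumor, lowest in KO tumor 544. The squamous epithelium genes *Krt5* (0.617 to 453 CPM) and *Trp63* (0.103 to 21.3 CPM) ranged widely, lowest in WT tumor 555 and highest in WT tumor 542. Markers of colon epithelium were thus present in each tumor, but the tumors were not uniform in epithelial and squamous genes. CPM are counts scaled to the library size, with TMM factors of the 8 tumors. KO tumor 544 stood apart from the other tumors. Mitochondrially encoded mRNAs took 7.93% and ribosomal protein genes 12.1% of its counts, against 1.5% to 4.16% and 5.34% to 6.64% in the other tumors, and it was the highest of the 8 tumors for 32% of the genes tested. Named DEGs and lists are therefore given without it, or tumor by tumor, where that changes a call or a median by over 1.5 times. The RNA quality of this tumor was not measured here. These are bulk RNA samples, so that fewer cells of a type and less RNA per cell cannot be told apart.

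In KO against WT tumors, 50 genes rose (0.264% of the genes tested) and 8 fell (0.0422%) at a nominal p under 0.01 with a fold change over 2, a threshold taken over from the published methods. Genes past it are called DEGs here, and nominal p are from edgeR unless another tool is named. In edgeR's quasi-likelihood test with Benjamini-Hochberg adjustment, 0 genes had an adjusted p under 0.05 (the lowest was 0.699), while 1254 genes had a nominal p under 0.05, of which 1034 (5.45%) lay above 0 and 220 (1.16%) below it. The median log2 fold change of all genes was -0.02. All 3 KO tumors lay above all 5 WT tumors for 390 genes (2.06%) and below them for 223 (1.18%). Outside the alpha-defensins and secretoglobins, the genes named below as DEGs of all 8 tumors were picked among DEGs without overlap. Their lack of overlap is therefore no separate result. Of the 50 DEGs that rose, 27 are pseudogenes or, by their symbols, predicted genes, small RNAs or receptor segments, and 22 are annotated as protein coding. Of the 8 that fell, 5 are of the first kind and 3 are protein coding. Without KO tumor 544, 3 of the 50 and 2 of the 8 remained DEGs, on a background of 13 genes that rose (0.0669%) and 4 that fell (0.0206%). With all tumors, DESeq2 called 151 genes higher and 32 lower with 0 at an adjusted p under 0.05.

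The study names 11 genes of the type I IFN response for these tumors, and all 11 had lower mean levels in KO than in WT tumors, with a median log2 fold change of -1.48, against -0.02 over all genes. They are the 2′-5′ oligoadenylate synthetases and their relatives *Oas2*, *Oas3*, *Oasl1* and *Oasl2*, which take part in the defence against viral RNA, the RNA helicases *Ddx60* and *Dhx58* of the RIG-I pathway, the IFN-inducible GTPases *Gbp7*, *Gvin1* and *Mx2*, the IFIT family member *Ifit1bl2*, and *Slfn4*, a Schlafen gene of myeloid cells. None of the 11 passed the threshold in edgeR (nominal p 0.0221 to 0.0467, adjusted p = 0.699 for each). DESeq2, the tool of the study's methods, called 10 of the 11 lower (nominal p 0.00292 to 0.0113, adjusted p = 0.604 for each). Because the list was picked from these very tumors, it gives no independent evidence of a direction. Of the 75-base stretches (the read length) in *Gvin1* transcripts, 98.3% also occur in another gene, so that counts of *Gvin1* are uncertain. For *Gbp7* the share was 11.3%.

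The promoters of these genes were searched for a shared element. ISGF3 binds repeats of GAAA, any 2 bases and GAAA again, a motif that was searched on both strands of RefSeq windows of 250 bases before to 50 bases after the gene start (GRCm38.p6). It was found in 4 of the 7 genes of the list that have a window (57.1%), in 472 of 12185 tested genes with a window (3.87%) and in 1079 of all 27025 genes with a window (3.99%). The 4 promoters are printed with each match in capitals, since these are the windows in which the element stands close to the start:
*Ddx60* promoter, chr8:61927837-61928136, plus strand: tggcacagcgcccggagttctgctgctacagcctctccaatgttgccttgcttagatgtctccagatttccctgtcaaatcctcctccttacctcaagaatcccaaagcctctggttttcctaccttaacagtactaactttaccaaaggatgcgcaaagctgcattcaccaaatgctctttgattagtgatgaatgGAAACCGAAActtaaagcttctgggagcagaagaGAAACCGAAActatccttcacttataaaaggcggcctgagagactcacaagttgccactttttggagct
*Ifit1bl2* promoter, chr19:34640694-34640993, minus strand: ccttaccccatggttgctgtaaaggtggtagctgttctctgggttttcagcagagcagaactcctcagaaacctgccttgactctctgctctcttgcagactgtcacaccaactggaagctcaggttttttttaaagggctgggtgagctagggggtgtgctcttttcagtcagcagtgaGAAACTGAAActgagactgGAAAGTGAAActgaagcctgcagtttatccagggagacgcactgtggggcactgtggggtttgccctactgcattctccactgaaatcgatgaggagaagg
*Oas3* promoter, chr5:120777610-120777909, minus strand: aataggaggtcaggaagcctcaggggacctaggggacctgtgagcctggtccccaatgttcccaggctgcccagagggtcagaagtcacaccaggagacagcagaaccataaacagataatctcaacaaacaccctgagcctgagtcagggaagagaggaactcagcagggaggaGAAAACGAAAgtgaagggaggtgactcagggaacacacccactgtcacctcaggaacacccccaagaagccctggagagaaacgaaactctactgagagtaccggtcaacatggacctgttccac
*Gbp7* promoter, chr3:142530086-142530385, plus strand: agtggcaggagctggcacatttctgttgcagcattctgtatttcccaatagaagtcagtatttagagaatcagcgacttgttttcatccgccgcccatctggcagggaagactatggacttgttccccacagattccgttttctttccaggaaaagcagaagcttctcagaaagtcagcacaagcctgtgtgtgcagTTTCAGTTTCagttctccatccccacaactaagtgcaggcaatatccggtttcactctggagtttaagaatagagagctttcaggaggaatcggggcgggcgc
*Ddx60* and *Ifit1bl2* hold 2 matches each, *Oas3* holds 1, and *Gbp7* holds 1 on the opposite strand, where the printed letters read as its reverse complement. A match is a stretch of letters and not a measured binding site.

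The KO tumors lay close together for these genes, while the WT tumors were spread widely. *Mx2*, which the annotation lists as a polymorphic pseudogene, had 0.559, 0.512 and 0.502 CPM in KO tumors 527, 543 and 544, against 2.02, 6.15, 1.78, 0.401 and 0.797 CPM in WT tumors 534, 541, 542, 579 and 555. Its log2 fold change was -2.07 (SE 0.80, nominal p of 0.0276, adjusted p = 0.699). *Oas3* had 9.16, 11.5 and 14.2 CPM in KO and 23.6, 107, 46.0, 9.90 and 17.6 CPM in WT tumors, in the same order, with a log2 fold change of -1.82 (SE 0.70, nominal p of 0.0274, adjusted p = 0.699). For both genes WT tumor 579 sat among or below the KO tumors and WT tumor 541 was far above the rest.

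The other oligoadenylate synthetase-like genes were spread in a like way, as was *Ddx60*. *Oasl2*, an IFN-induced synthetase-like protein that binds double-stranded RNA, had 35.8, 39.6 and 45.2 CPM in KO tumors and 84.3, 265, 130, 27.9 and 52.4 CPM in WT tumors. *Oasl1*, a repressor of *Irf7* translation in the mouse, had 24.4, 33.9 and 19.9 CPM in KO and 40.3, 133, 103, 25.1 and 46.8 CPM in WT tumors, and it had the lowest p of the list (log2 fold change -1.41, SE 0.52, nominal p of 0.0221). *Ddx60*, with 10.7, 14 and 10.3 CPM in KO and 25.9, 85.9, 43.2, 6.87 and 20.2 CPM in WT tumors, differed by -1.64 (SE 0.66, nominal p of 0.0325). In each of these 3 genes the KO tumors lay below 4 of the 5 WT tumors.

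**Figure D1:**
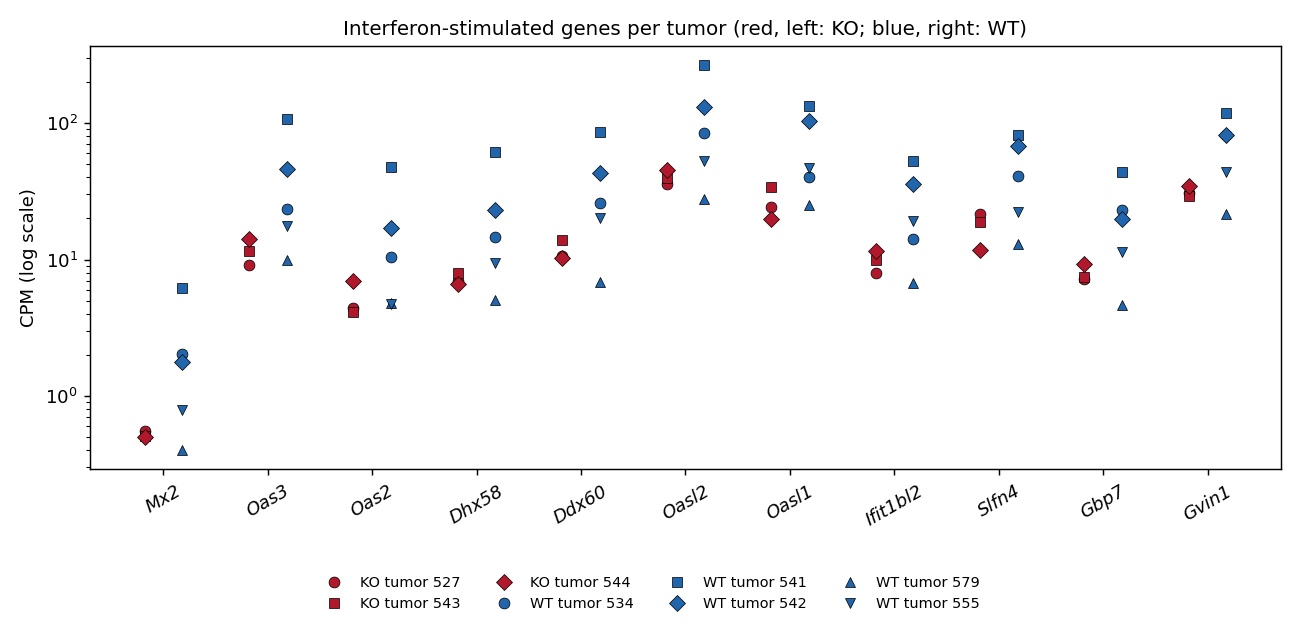
Level of the 11 IFN genes that the study names (CPM, log scale on the vertical axis) in each tumor, with KO tumors in red at the left and WT tumors in blue at the right of each gene and a symbol for each mouse. WT tumor 541 is the highest tumor for 11 of 11 genes, and WT tumor 579 lies below every KO tumor for 7 of them.

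WT tumor 541 was the highest of the 8 tumors for 11 of 11 genes, and WT tumor 579 was at or below the highest KO tumor for 11 of 11. All KO tumors lay below the other 4 WT tumors for 10 genes, with *Oas2* as the exception (6.94 CPM in KO tumor 544 against 4.70 CPM in WT tumor 555). Without WT tumor 579, 10 of the 11 were DEGs in edgeR, on a background of 55 genes that fell (0.292% of 18818). Each of those 55 genes had an adjusted p of 0.727. Without WT tumor 541, none was a DEG and the median log2 fold change was -0.94.

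Sample titles carry a number before the mouse number, whose meaning is not given, and only number 76 holds both genotypes (KO 543 and 544, WT 541 and 542). Within it, all 11 genes were DEGs that fell, with log2 fold changes of -2.95 for *Mx2* to -1.65 for *Gvin1* (nominal p 0.000277 for *Slfn4* to 0.00237 for *Mx2*, adjusted p 0.725 to 0.768). This comparison holds WT tumor 541 and not WT tumor 579, and in it 147 of 18708 genes tested fell and 46 rose. Its tumors are among those from which the list was picked, so it is no separate evidence.

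Further IFN-stimulated genes lay on the same side without passing the threshold. Of 38 other type I IFN-stimulated genes, 37 had a log2 fold change below 0 and 0 were DEGs, with a median of -0.89, where 52.4% of all genes tested lay below 0. Without WT tumor 541 the median was -0.44. *Samd9l*, an antiviral and antiproliferative factor, was the only member for which no KO tumor overlapped WT: it had 52.6, 61.4 and 33.6 CPM in KO and 71.0, 107, 89.6, 68.0 and 72.0 CPM in WT tumors (log2 fold change -0.73, SE 0.23, nominal p of 0.0113, adjusted p = 0.699). *Ifih1*, which encodes the RNA sensor MDA5, had 32.3, 34.5 and 24.9 CPM in KO and 51.4, 82.9, 60.6, 31.7 and 49.8 CPM in WT tumors (log2 fold change -0.85, SE 0.28, nominal p of 0.0123, adjusted p = 0.699). Of 6 further Schlafen genes, a family induced by type I IFN, 6 lay below 0 with 0 DEGs and a median of -0.70, or -0.33 without WT tumor 541. *Slfn5*, a nuclear member of it and the only one with a nominal p under 0.05, had 8.97, 8.48 and 8.19 CPM in KO tumors, which hardly differed among themselves, and 19.6, 103, 37.9, 6.45 and 11.9 CPM in WT tumors (log2 fold change -2.06, SE 0.81, nominal p of 0.0291). The GAAA repeat motif was in 14 of the 28 windows of the 38 other type I genes (50%).

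The IFN-γ-induced genes separated the KO tumors from each other. All 26 had a log2 fold change below 0, with a median of -1.02 and 0 DEGs, and 11 of their 15 windows held the motif (73.3%). The summed level was 639, 559 and 2042 CPM in KO tumors 527, 543 and 544, and 2160, 4470, 2044, 355 and 766 CPM in WT tumors 534, 541, 542, 579 and 555. KO tumor 544 was thus close to WT tumors 534 and 542 in these genes, whereas for the 11 genes the study names it had 171 CPM in sum, against 160 and 177 CPM in the other KO tumors. *Ciita*, the master regulator of MHC class II genes, had 6.06, 7.0 and 8.40 CPM in KO and 26.2, 35.6, 18.5, 2.73 and 13.4 CPM in WT tumors (log2 fold change -1.43, SE 0.63, nominal p of 0.0459). *Gbp5*, a guanylate-binding protein that promotes inflammasome assembly, had 8.13, 6.06 and 15.8 CPM in KO and 26.5, 76.6, 27.1, 3.18 and 10.2 CPM in WT tumors (log2 fold change -1.53, SE 0.84, nominal p of 0.0986). The median of the 26 genes was -0.37 without WT tumor 541, -0.63 without KO tumor 543 and -1.97 without KO tumor 544.

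Antigen presentation genes held no DEGs. The 16 MHC class I and immunoproteasome genes had a median of -0.31 (0 DEGs), which was 0.03 without WT tumor 541 and -1.07 without KO tumor 544. The 9 MHC class II genes had a median of -0.33 (0 DEGs), which was -0.04 without KO tumor 527 and -1.05 without KO tumor 544. WT tumor 579 had the lowest level of both lists and lay below every KO tumor for 16 of 16 and 9 of 9 genes.

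*Cd8a*, the CD8 co-receptor chain of cytotoxic T cells that the study also names for tumors, had 0.307, 0.350 and 0.543 CPM in KO and 0.946, 6.90, 1.02, 0.134 and 1.21 CPM in WT tumors. Its log2 fold change was -2.36 (SE 1.04, nominal p of 0.0485, adjusted p = 0.699), and WT tumor 541 alone held most of the WT counts. It passed the threshold in DESeq2 (nominal p of 0.00737) and within number 76 (log2 fold change -3.16), while without WT tumor 541 its log2 fold change was -1.07 (nominal p of 0.136). *Prf1*, the pore-forming protein of cytotoxic granules, had 0.0838, 0.0808 and 0.125 CPM in KO and 0.460, 3.12, 0.643, 0.0535 and 0.154 CPM in WT tumors (log2 fold change -3.17, SE 1.27, nominal p of 0.0322), and it passed in DESeq2 (nominal p of 0.00298) and within number 76 (log2 fold change -4.18) too. Outside WT tumor 541, *Prf1* was at most 0.643 CPM, so that few reads carry its difference. Of 18 CD8 and cytotoxic lymphocyte markers, 16 lay below 0 and 0 were DEGs, with a median of -0.71, which lay between -1.49 (without KO tumor 544) and -0.15 (without WT tumor 541) when 1 tumor was left out. The summed level of the markers was 11.7 to 31.2 CPM in KO and 5.14 to 69.4 CPM in WT tumors, lowest in WT tumor 579 and highest in WT tumor 541 like the IFN genes, and its part in the IFN result was not tested. Of 20 T cell markers, all lay below 0 with a median of -0.33, or -0.16 without WT tumor 541, and 0 DEGs.

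The same IFN genes were compared with the genotype difference in late colon, to ask whether the lower level in KO belonged to tumors. In late colon all 11 genes lay above 0 (log2 fold change 0.28 to 1.28, median 0.91, nominal p 0.00725 to 0.268), and 1 was a DEG that rose, on a background of 79 of 18899 genes (0.418%). Of the 26 IFN-γ-induced genes, 12 were DEGs that rose in late colon, with a median of 1.29, against a median of -1.02 and 0 DEGs in tumors. The difference between both effects, tumor minus late colon, was below 0 for 11 of 11 genes (-3.25 to -1.63, median -2.30), with a nominal p of 0.00445 to 0.0401 and an adjusted p of 0.419 to 0.420 in edgeR. With the mouse as a replicate block over the 6 mice that gave both samples, it was -2.72 to -1.79 (nominal p 0.000247 to 0.0138, adjusted p 0.270 to 0.443). The 11 genes were picked from these tumors, whose values enter both tests. The sign and nominal p of this difference are therefore no independent evidence that the lower level belongs to tumors. Over all genes, 110 passed the nominal threshold above 0 and 51 below 0 in this test (161 of 20391, 0.790%), and 0 had an adjusted p under 0.05 while 2385 had a nominal p under 0.05.

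**Figure D2:**
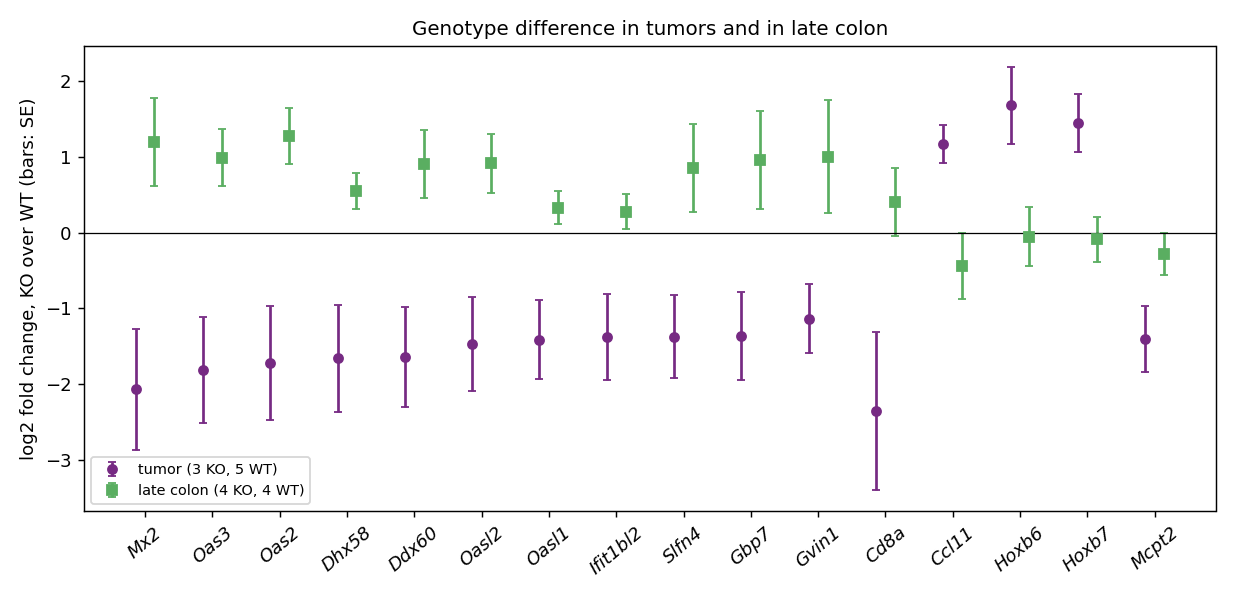
Log2 fold change of KO over WT (vertical axis, bars are SE) in tumors (purple circles, 3 KO and 5 WT) and in late colon (green squares, 4 KO and 4 WT) for 16 genes. The 11 IFN genes at the left lie between -2.07 and -1.14 in tumors and between 0.28 and 1.28 in late colon, while *Ccl11*, *Hoxb6* and *Hoxb7* lie above 0 in tumors and at -0.45, -0.05 and -0.09 in late colon.

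*Ccl11* had the lowest p of the named genes that rose. It encodes eotaxin-1, the chemokine that draws eosinophils through CCR3, and lies at chr11:82057823-82062955 on the plus strand of GRCm38. It had 6.95, 5.87 and 10.4 CPM in KO tumors and 3.66, 3.47, 4.27, 3.29 and 2.47 CPM in WT tumors, so that the groups did not overlap and the means were 7.74 ± 2.37 (SD, n = 3) and 3.43 ± 0.652 CPM (SD, n = 5). The log2 fold change was 1.17 (SE 0.25, nominal p of 0.000866, adjusted p = 0.699 in edgeR). Without KO tumor 544 it was 0.91 (SE 0.22, nominal p of 0.00349), just under a 2-fold change. Of the 8 eosinophil and type 2 genes tested, *Ccl11* was the only DEG, 6 lay below 0 and the median was -0.31. In late colon the *Ccl11* difference was -0.45 (SE 0.44, nominal p of 0.334), and the difference between tumor and late colon was 1.63 (SE 0.52, nominal p of 0.00618, adjusted p = 0.419). With the mouse as a replicate block it was 1.13 (nominal p of 0.00225, adjusted p = 0.315). *Ccl11* was picked from these tumors, whose values enter both tests. Their sign and nominal p are therefore no independent evidence that the difference belongs to tumors.

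*Hoxb6* and *Hoxb7* are neighbours in the HoxB cluster (chr11:96292476-96301569 and chr11:96286623-96290162, both on the plus strand of GRCm38) and encode homeodomain factors of anterior-posterior position. *Hoxb7* had 3.66, 4.93 and 4.6 CPM in KO and 2.15, 1.67, 1.84, 1.90 and 0.514 CPM in WT tumors, with a log2 fold change of 1.44 (SE 0.38, nominal p of 0.00385, adjusted p = 0.699). *Hoxb6* had 2.51, 4.82 and 2.88 CPM in KO and 1.74, 1.04, 1.29, 1.04 and 0.206 CPM in WT tumors (log2 fold change 1.68, SE 0.51, nominal p of 0.00811, adjusted p = 0.699). Groups did not overlap for either gene, and KO tumor 544 was not the highest tumor in either. Without KO tumor 544 the fold changes stayed at 1.42 and 1.79, with nominal p of 0.0122 and 0.0149, and within number 76 both were DEGs. *Hoxb5*, the next gene of the cluster, had 1.26, 1.89 and 0.752 CPM in KO and 1.18, 0.41, 0.351, 0.455 and 0.206 CPM in WT tumors (log2 fold change 1.32, SE 0.52, nominal p of 0.0311). Of 14 genes of Hox groups 1 to 8, 9 lay above 0 with a median of 0.21, and of 11 genes of groups 9 to 13, which mark the hindgut, 5 lay above 0 with a median of -0.01. For *Hoxb7*, the difference between tumor and late colon was 1.55 (SE 0.51, nominal p of 0.00776, adjusted p = 0.419). With the mouse as a replicate block it was 1.93 (nominal p of 0.00187, adjusted p = 0.315). *Hoxb7* too was picked from these tumors, so neither value is independent evidence that the difference belongs to tumors.

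*Ppp2r2b*, a regulatory subunit of protein phosphatase 2A, had 1.20, 0.781 and 0.961 CPM in KO and 0.384, 0.504, 0.351, 0.481 and 0.463 CPM in WT tumors (log2 fold change 1.16, SE 0.28, nominal p of 0.00213, adjusted p = 0.699). It was a DEG in 7 of the 8 fits that left out 1 tumor each and missed the threshold without KO tumor 527 (log2 fold change 0.98, nominal p of 0.0186). *Aqp5*, a water channel of gland and gastric epithelium, had 0.810, 0.431 and 0.543 CPM in KO and 0.205, 0.221, 0.0585, 0.214 and 0.283 CPM in WT tumors (log2 fold change 1.58, SE 0.44, nominal p of 0.00495, adjusted p = 0.699). *Gkn3*, a gastrokine of the stomach, had 2.93, 1.89 and 4.76 CPM in KO and 1.64, 0.883, 1.35, 1.5 and 1.70 CPM in WT tumors (log2 fold change 1.17, SE 0.33, nominal p of 0.00595, adjusted p = 0.699). Groups did not overlap for these genes, and *Aqp5* and *Gkn3* were the DEGs among 9 gastric-type genes, whose median was 0.11. Neither was a DEG without KO tumor 544, with log2 fold changes of 1.64 for *Aqp5* (nominal p of 0.0105) and 0.77 for *Gkn3* (nominal p of 0.0354). In late colon both also lay above 0, at 2.96 for *Aqp5* (SE 1.10, nominal p of 0.0258) and 1.23 for *Gkn3* (SE 0.90, nominal p of 0.209). *Ppp2r2b* was at most 1.20 CPM and *Aqp5* at most 0.810 CPM in any tumor, so that few reads carry their differences.

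Other DEGs that rose without overlap leaned on KO tumor 544 to different degrees. *Defb45*, a beta-defensin, had 5.98, 4.09 and 5.89 CPM in KO and 4.09, 1.04, 1.99, 2.33 and 1.77 CPM in WT tumors (log2 fold change 1.24, nominal p of 0.00858), where KO tumor 543 and WT tumor 534 were equal to 3 digits. It was no DEG without KO tumor 544 (log2 fold change 1.17, nominal p of 0.0278). *Rgcc*, a regulator of the cell cycle that responds to complement, had 24.3, 21.7 and 57.5 CPM in KO and 19.3, 12.3, 15.6, 16.5 and 14.7 CPM in WT tumors, and its log2 fold change of 1.13 was 0.56 without KO tumor 544. *Fmc1*, an assembly factor of mitochondrial ATP synthase, had 21.4, 19.1 and 61.3 CPM in KO and 14.5, 14.8, 16.0, 14.5 and 15.9 CPM in WT tumors, and its log2 fold change of 1.16 was 0.42 without that tumor. Within number 76 *Defb45* was a DEG, while *Rgcc* and *Fmc1* were not.

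**Figure D3:**
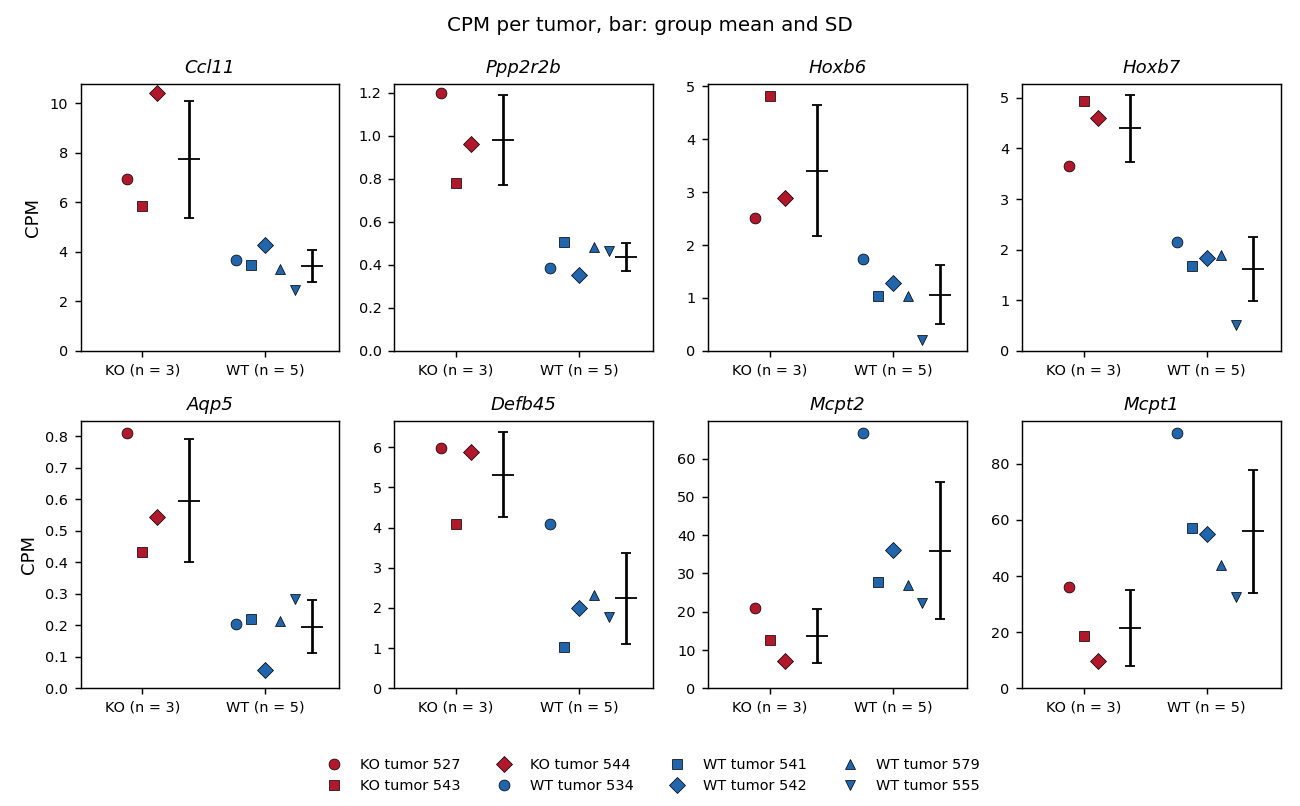
Level of 8 genes (CPM, vertical axis) in each of 3 KO tumors (red, left) and 5 WT tumors (blue, right), with a symbol for each mouse and the group mean and SD as a bar beside the points. The first 7 genes were picked among DEGs whose groups do not overlap (*Ccl11* 5.87 to 10.4 CPM in KO and 2.47 to 4.27 CPM in WT). For *Mcpt1*, KO tumor 527 (36.1 CPM) lies above WT tumor 555 (32.5 CPM).

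Mast cell genes were at lower levels in KO tumors. *Mcpt2*, a chymase of intestinal mucosal mast cells, fell to 21.1, 12.5 and 7.15 CPM in KO tumors, against 66.8, 27.7, 36.0, 27.0 and 22.4 CPM in WT tumors (log2 fold change -1.40, SE 0.43, nominal p of 0.00934, adjusted p = 0.699), and the groups did not overlap. *Mcpt1*, the other mucosal chymase and its neighbour on chromosome 14, had 36.1, 18.6 and 9.57 CPM in KO and 91.0, 57.0, 55.0, 43.9 and 32.5 CPM in WT tumors (log2 fold change -1.38, SE 0.44, nominal p of 0.0110). *Cpa3*, the mast cell carboxypeptidase, had 2.29, 1.54 and 0.71 CPM in KO and 4.88, 1.86, 3.36, 3.48 and 2.36 CPM in WT tumors (log2 fold change -1.06, SE 0.42, nominal p of 0.0316). KO tumor 544 was the lowest tumor in each of the 3 genes, and without it the *Mcpt2* log2 fold change was -1.09 (nominal p of 0.0393). Of 11 mast cell markers, 1 was a DEG that fell and 10 lay below 0, with a median of -0.93. Within number 76 the median was -0.50, and *Mcpt1* and *Mcpt2* were both DEGs there (log2 fold changes -1.99 and -1.69). In late colon *Mcpt2* differed by -0.29 (nominal p of 0.328), and the difference between tumor and late colon was -1.09 (nominal p of 0.0597).

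Alpha-defensins are antimicrobial peptides of Paneth cells. All 28 lay above 0 (median log2 fold change 2.21), and 7 were DEGs that rose. *Defa21* had 10.6, 55.5 and 240 CPM in KO tumors 527, 543 and 544, and 8.67, 25.8, 23.3, 11.7 and 16.1 CPM in WT tumors (log2 fold change 2.57, SE 0.74, nominal p of 0.00638, adjusted p = 0.699). *Defa22* had 11.6, 66.6 and 254 CPM in KO and 9.64, 28.9, 27.8, 12.9 and 19.5 CPM in WT tumors (log2 fold change 2.48, SE 0.73, nominal p of 0.00725, adjusted p = 0.699). KO tumors 543 and 544 lay above every WT tumor for all 28 genes and KO tumor 527 lay within the WT range or below it for all 28. The median ratio to the WT mean was 10.4 in KO tumor 544, 2.90 in KO tumor 543 and 0.568 in KO tumor 527. Without KO tumor 544 the median was 0.84 and 0 were DEGs. *Lyz1*, the lysozyme of Paneth cells, had 1223, 1821 and 3874 CPM in KO and 1122, 1481, 1398, 958 and 1001 CPM in WT tumors, and of 9 other Paneth cell and regenerating islet-derived genes 0 were DEGs, with a median of 0.91, or 0.33 without KO tumor 544. In late colon, 22 alpha-defensins were tested, with a median of 3.10 and 0 DEGs.

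The members of the family are near-copies of each other, so that counts of single members are uncertain. The coding sequences of *Defa21* and *Defa22* (chr8:21025545-21026516 and chr8:21162277-21163249, plus strand of GRCm38) differ at 2 of 279 bases, given in capitals:
*Defa21* coding sequence: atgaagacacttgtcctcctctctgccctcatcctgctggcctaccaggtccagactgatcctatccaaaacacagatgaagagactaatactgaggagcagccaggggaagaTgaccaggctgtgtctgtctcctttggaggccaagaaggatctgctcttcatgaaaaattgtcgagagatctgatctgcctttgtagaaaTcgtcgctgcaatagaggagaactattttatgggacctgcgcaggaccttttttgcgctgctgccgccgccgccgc
*Defa22* coding sequence: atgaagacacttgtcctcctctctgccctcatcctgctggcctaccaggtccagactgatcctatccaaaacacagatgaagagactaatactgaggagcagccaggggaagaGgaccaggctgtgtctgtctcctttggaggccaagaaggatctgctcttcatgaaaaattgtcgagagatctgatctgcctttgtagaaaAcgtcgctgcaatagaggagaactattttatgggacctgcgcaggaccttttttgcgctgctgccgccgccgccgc
Of 22 alpha-defensins with a transcript in GENCODE release M21, 22 share at least 1 window of 75 bases, the read length, with another gene, and the median share of their windows that do so is 82.5%. *Defa23* and *Defa31*, and *Defa36* and *Defa37*, are identical over 279 coding bases and had equal counts in all 8 tumors. The 28 values are therefore not 28 separate measurements.

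Secretoglobins, a family of small secreted proteins of glands, were highest in the same tumor. Of 17 tested, 10 were DEGs that rose and 17 lay above 0, with a median log2 fold change of 2.13. Of these 10, 4 are annotated as unprocessed pseudogenes (*Scgb2b6*, *Scgb2b10*, *Scgb2b30* and *Scgb2b33*). *Scgb2b7* had 7.57, 6.14 and 41.2 CPM in KO and 4.94, 3.85, 5.32, 3.53 and 4.22 CPM in WT tumors, without overlap (log2 fold change 2.06, SE 0.54, nominal p of 0.00355, adjusted p = 0.699). *Scgb2b15* had 24.8, 17.6 and 190 CPM in KO and 16.8, 20.9, 19.2, 10.03 and 9.82 CPM in WT tumors (log2 fold change 2.34, SE 0.67, nominal p of 0.00623, adjusted p = 0.699). The median ratio to the WT mean was 11.2 in KO tumor 544, 1.34 in KO tumor 543 and 1.62 in KO tumor 527. Without KO tumor 544, 0 were DEGs and the median was 0.42. Copies are shared here as well: the coding sequence of *Scgb2b15*, shown because it cannot be told from that of *Scgb2b17* at any of its 246 bases, is on the minus strand of chr7:32827683-32829662, and its copy on that of chr7:33054582-33056561:
*Scgb2b15* coding sequence: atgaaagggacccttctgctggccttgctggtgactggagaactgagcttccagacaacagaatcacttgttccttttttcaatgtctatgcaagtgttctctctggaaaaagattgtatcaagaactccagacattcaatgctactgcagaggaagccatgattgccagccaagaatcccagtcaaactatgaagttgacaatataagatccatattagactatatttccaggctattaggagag

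**Figure D4:**
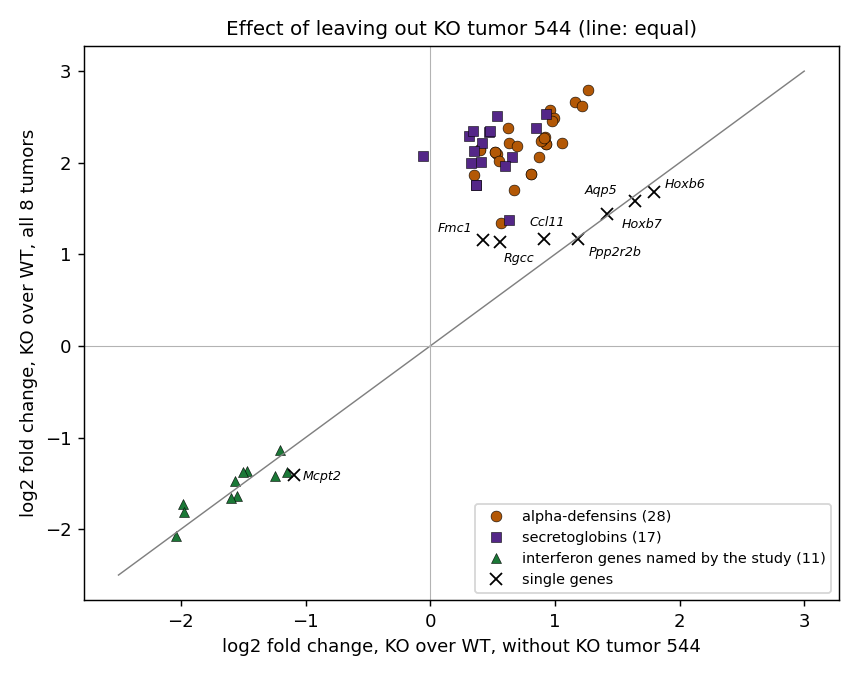
Log2 fold change of KO over WT with all 8 tumors (vertical axis) against that without KO tumor 544 (horizontal axis), for alpha-defensins (28, orange), secretoglobins (17, purple), the IFN genes that the study names (11, green) and single genes (crosses), with a line where both are equal. Both families drop from medians of 2.21 and 2.13 to 0.84 and 0.42 on the horizontal axis, while the IFN genes, *Hoxb6*, *Hoxb7*, *Aqp5* and *Ppp2r2b* stay near the line.

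Ribosomal protein and mitochondrial mRNAs were high in KO tumor 544 alone. The 80 cytosolic ribosomal protein genes had a median log2 fold change of 0.83 with 0 DEGs, and 0.11 without KO tumor 544, where their median ratio to the WT mean was 3.22. For 13 mitochondrially encoded mRNAs the median was 0.93 and 0.02 without it, and for 80 nuclear-encoded oxidative phosphorylation genes it was 0.58 and 0.07. The 49 DEGs that rose and have an annotated exon length had a median length of 508 bases and the 8 that fell of 1034 bases, against 3499 bases over the genes tested. In KO tumor 544 the level relative to the other tumors ran against exon length across genes (Spearman's rho -0.399), while in the other tumors rho was 0.0262 to 0.296. Genes are not independent replicates, and what part transcript length has in the 50 DEGs was not tested.

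The level of neutrophil genes depended on that tumor too. Of 18 neutrophil markers, 16 lay above 0 with a median of 0.62 and 0 DEGs, and without KO tumor 544 the median was -0.09. *Mmp8*, the neutrophil collagenase, had 3.04, 3.69 and 3.93 CPM in KO and 1.53, 1.99, 2.89, 1.02 and 0.720 CPM in WT tumors without overlap (log2 fold change 1.13, SE 0.40, nominal p of 0.0192), so that all 3 KO tumors contributed to it. *Retnlg*, a resistin-like protein of neutrophils, had 10.03, 15.0 and 29.8 CPM in KO and 3.68, 9.71, 10.6, 3.24 and 1.03 CPM in WT tumors (log2 fold change 1.69, SE 0.64, nominal p of 0.0243). The 27 inflammatory cytokines and chemokines tested had 0 DEGs and a median of 0.19, 18 monocyte and macrophage markers a median of 0.00, and 17 dendritic cell markers a median of 0.06.

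**Figure D5:**
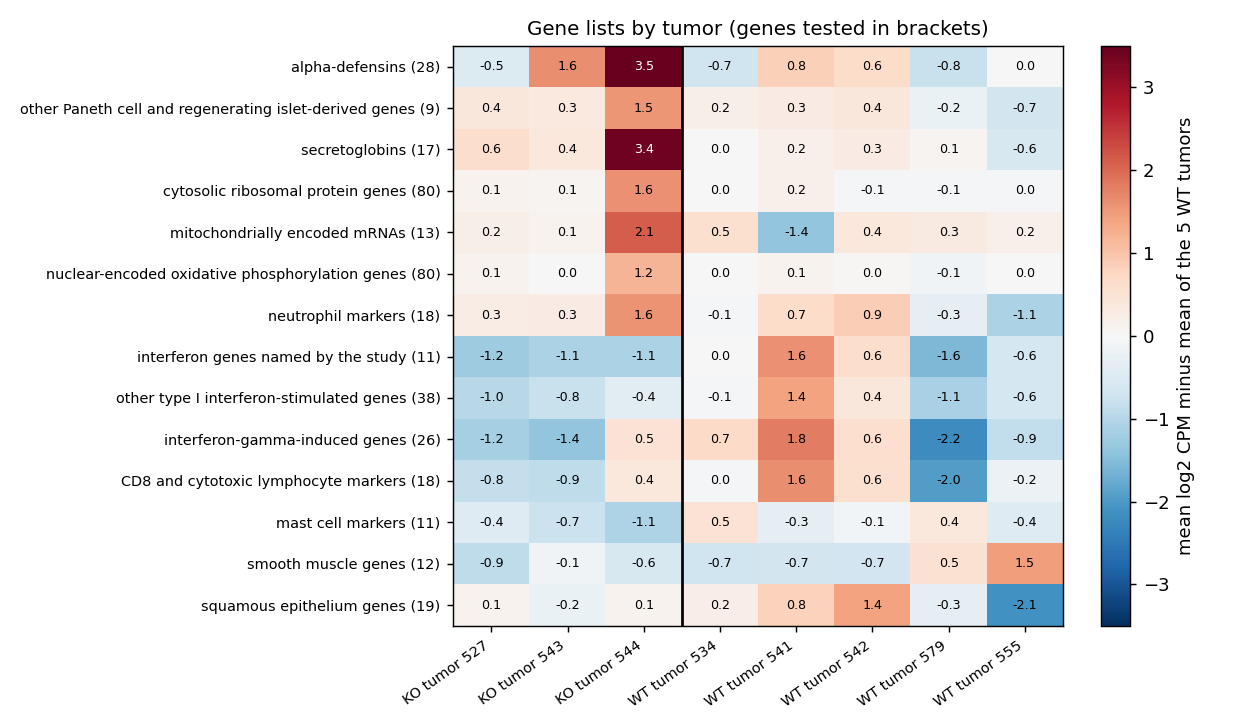
Mean log2 CPM of 14 gene lists (rows, number of genes tested in brackets) in each tumor (columns, KO at the left of the line and WT at the right), as the difference from the mean of the 5 WT tumors. KO tumor 544 stands at 3.52 for alpha-defensins, 3.40 for secretoglobins and 1.59 for ribosomal protein genes, and the IFN genes that the study names stand at -1.23 to -1.11 in KO tumors and at -1.58 in WT tumor 579 and 1.59 in WT tumor 541.

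The epithelial and stromal lists held few DEGs. Of 22 stem cell and Wnt target genes, 0 were DEGs and the median was 0.03. *Lgr5*, the crypt stem cell receptor, had 50.3, 51.0 and 75.6 CPM in KO and 50.6, 35.4, 41.8, 55.3 and 43.6 CPM in WT tumors (log2 fold change 0.38, SE 0.20, nominal p of 0.0818). *Ephb2*, a Wnt target that positions crypt cells, had 109, 98.3 and 86.0 CPM in KO and 115, 132, 114, 113 and 112 CPM in WT tumors, without overlap though the log2 fold change was -0.26 (SE 0.14, nominal p of 0.103). The 24 proliferation genes had a median of -0.10, the 10 colon epithelium genes of -0.29 and the 17 surface colonocyte genes of -0.41 (-0.11 without WT tumor 555), all with 0 DEGs. Mean log2 CPM of the colon epithelium genes was 9.10, 8.92 and 8.24 in KO tumors 527, 543 and 544, and 8.79 to 9.27 in WT tumors. For the surface colonocyte genes it was 5.72, 5.47 and 4.90 in KO and 4.91 to 6.43 in WT tumors. KO tumor 544 was thus the lowest tumor for both lists, and the other KO tumors lay within the WT range. Of 19 squamous epithelium genes 18 lay below 0 (median -0.57, or -0.16 without WT tumor 542, 0 DEGs), and WT tumor 555 had the lowest summed level of them (516 CPM, against 752 to 2690 CPM in the other tumors). *Krt78*, a keratin of stratified epithelium that is in none of the lists, was a DEG that fell, with 0.419, 0.323 and 0.251 CPM in KO and 0.511, 0.914, 0.643, 0.722 and 0.720 CPM in WT tumors (log2 fold change -1.06, SE 0.33, nominal p of 0.00946, adjusted p = 0.699). It did not pass without KO tumor 544 (log2 fold change -0.91, nominal p of 0.0296), nor within number 76. *Krt78* was at most 0.914 CPM in any tumor, so that few reads carry its difference.

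Of 12 smooth muscle genes, 12 lay below 0 with a median of -0.82 and 0 DEGs. *Myh11*, the smooth muscle myosin, had 15.3, 28.4 and 11.6 CPM in KO and 21.6, 18.3, 17.0, 51.7 and 155 CPM in WT tumors (log2 fold change -1.52, SE 0.77, nominal p of 0.0781), and WT tumors 555 and 579 carried the difference. Without WT tumor 555 the median of the list was -0.21, and within number 76, which holds neither, it was 0.43. The 18 fibroblast and matrix genes had a median of -0.17 and the 14 endothelial genes of -0.16, with 0 DEGs in either list.

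*Dnase1l3* itself had 3.66, 4.07 and 9.95 CPM in KO and 6.01, 2.14, 10.5, 4.89 and 10.6 CPM in WT tumors (log2 fold change -0.22, SE 0.52, nominal p of 0.679, adjusted p = 0.888), so the groups overlapped. The counts cover the whole gene and the deleted stretch is not given, so they do not test the genotype labels. Of the 17 DNases and nucleic acid sensors tested, 0 were DEGs, 12 lay below 0 and the median was -0.16. *Tbk1*, the kinase downstream of STING and RIG-I-like receptors, had 24.2, 26.3 and 26.0 CPM in KO and 31.1, 32.2, 34.5, 26.6 and 29.9 CPM in WT tumors, without overlap (log2 fold change -0.28, SE 0.13, nominal p of 0.0644).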

How the data were processed

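Reads (single-end, 75 nt) were checked by the authors with FastQC 0.11.5, mapped with STAR to the mouse genome build mm10, and counted per gene with subread and GENCODE annotation. The deposited values are raw counts of 55291 gene symbols. How strand was set in counting is not given in the sources used here, so overlapping and antisense genes cannot be told apart. The 8 tumor libraries were taken from the deposited counts by their titles. The genotypes were compared in R 4.3.3 by edgeR 4.0.16 (glmQLFit and glmQLFTest, TMM, filterByExpr) on the tumors only, with p adjusted by the Benjamini-Hochberg method over all genes tested. Each SE is the estimate divided by the root of its F statistic. DEGs passed p under 0.01 and 2-fold. The p-values measure the spread between mice, 3 KO and 5 WT. CPM use the TMM factors of the tumor fit. The comparison and the 42 gene lists were chosen with earlier results of these data known. Genes were named by a rule: *Dnase1l3*, up to 12 DEGs with the largest change in each direction and no overlap between groups, leaving out pseudogenes, predicted genes, receptor segments and small RNAs, the genes the study names for tumors, the members of the 2 families, the 4 members of lowest p in any other list described, and cell type markers. Alternatives were DESeq2 1.42.0, RLE factors, no filter and a filter of 10 counts in each tumor, all 32 libraries in a single fit, the number before the mouse number as a block, number 76 alone, omission of mitochondrial and ribosomal protein genes, the mouse as a replicate block and omission of each tumor. The voom fit with library quality weights (limma 3.58.1) was added after the data were seen. Across the 6 mice with both samples, tumor and late colon deviations from group means correlated with r of 0.0397 to 0.243 over 20391 genes, and the mouse is the same animal by its number. The fits were tested on simulated counts. Promoters are from RefSeq on GRCm38.p6 and coding sequences and gene positions from GENCODE release M21 on GRCm38, the build of the counts. Some genes of the lists are not reported by name.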

Additional observations from a re-analysis of the deposited data

Results flagged for a closer look

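In groups of 4 to 10 samples a tumor was looked at again where its gap to the next tumor took up more of the group's range than chance allows at Dixon's 95% level, 0.71 for the 5 WT tumors. Of 39 sets of values tested 4 met this, and chance gives about 1 in 20. *Cd8a* met it with a gap of 0.841 of the range, with WT tumor 541 at 6.90 CPM and the next WT tumor at 1.21 CPM. *Mx2* met it at 0.718, with 6.15 CPM in WT tumor 541 and 2.02 CPM in the next, and *Oas2* at 0.712, with 47.8 and 17.1 CPM in the same order. The mean log2 CPM of the MHC class II genes met it at 0.912, with WT tumor 579 at 3.22 and the next lowest WT tumor at 5.44. The KO tumors, 3 in number, were not tested in this way.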

How the results depend on the processing

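Counts of DEGs moved with nearly every choice, and the cause was not tested unless a setting's construction gives it. Genes that rose numbered 50, and 218 with no filter, which tests more genes (33437), 132 with all 32 libraries, 151 with DESeq2 and 30 with voom weights, in which KO tumor 544 had a weight of 0.142 (0.618 to 2.58 in the others). Genes that fell numbered 8, and 30, 89, 32 and 19 in the same order, 2 with at least 10 counts in each tumor, 134 with the number before the mouse number as a block and 147 within number 76. Leaving out 1 tumor at a time gave 13 to 464 genes that rose and 4 to 55 that fell. It gave 13 without KO tumor 544, 464 and 408 without KO tumors 527 and 543, 19 to 29 without a WT tumor, and 20 that fell without WT tumor 534. No setting gave an adjusted p under 0.05. Alpha-defensins that rose numbered 7, and 26 with no filter, 4 with at least 10 counts, 2 with all libraries, 13 with the block, 13 within number 76, 15 with DESeq2 and 0 with voom, where the median was 0.54. Leaving out 1 tumor gave 0 to 27 and a median of 0.84 to 2.71. Secretoglobins that rose numbered 10, and 16 with all libraries, 1 with the block, 1 within number 76, 6 with DESeq2 and 0 with voom (median 0.52), and 0 to 17 with a median of 0.42 to 2.60 when 1 tumor was left out. The IFN genes named by the study that fell numbered 0, and 2 with no filter, 7 with all libraries, 11 with the block, 11 within number 76 and 10 with DESeq2, and 0 to 10 when 1 tumor was left out (median -1.72 to -0.94). Other type I genes that fell numbered 8, 17, 15 and 1 with all libraries, the block, number 76 and DESeq2, and 0 to 5 (median -1.16 to -0.44) when 1 tumor was left out. IFN-γ-induced genes that fell numbered 3 with the block and 3 within number 76, and 0 to 2 (median -1.97 to -0.37) when 1 tumor was left out.

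The test of tumor minus late colon gave 110 genes above 0 and 51 below it, 588 and 143 with all 32 libraries, and 16 to 508 above and 22 to 148 below when 1 tumor was left out. With the mouse as a replicate block over the 6 mice with both samples, the paired analysis gave 59 above and 303 below. No result reversed its sign past the threshold. For single genes and other lists, 2106 values were unchanged, 75 lost the threshold, 170 gained it and 23 moved with all libraries kept. With 1 library left out these numbers were 1933, 134, 85 and 6. Unchanged means that the call of a gene stayed, or that the median of a list moved by less than its pooled SD between tumors. Genes that were no DEGs could still change sign, as *Nts* did (log2 fold change 1.05, and down to -0.80 with 1 tumor left out). With 3 KO tumors, of which 1 stands apart, no named DEG passed in all 8 fits that left out a tumor.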
